A study of Homo sapiens with 6 samples.

Results

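The 58 genes described here encode the machinery that separates chromosomes at cell division, namely the mitotic kinases, the chromosomal passenger complex, the spindle assembly checkpoint, the anaphase-promoting complex with its partners, the mitotic kinesins, kinetochore and centromere proteins, spindle-binding proteins, cytokinesis proteins, condensin with other chromosome proteins, and the transcription factor FOXM1. They were chosen by gene symbol, and 58 of 58 were present among the 34811 genes of the count table. RNA-seq was performed on stable clones of OVCAR-3, an established ovarian carcinoma cell line, with 3 libraries per condition. OV3/SCR cells (clone #1) carried a scrambled shRNA and OV3/COX1KD cells (clone #2) an shRNA against COX-1, which is encoded by PTGS1. Both shRNAs were in the pRS HuSH-29 plasmid, both clones had been selected with puromycin, and both were grown in RPMI-1640 with 10% FBS without further treatment. Each condition was 1 clone, so knockdown and clone cannot be told apart, and p-values measured the spread between separately harvested populations of the same clone. In bulk RNA, a change in the number of cells in mitosis and a change in RNA per mitotic cell cannot be told apart either.

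At mitotic entry, kinases of the Aurora and Polo-like families build a bipolar spindle of microtubules while condensin and topoisomerase II compact the chromosomes. Kinetochores, assembled on the centromeres, bind spindle microtubules, and the spindle assembly checkpoint holds the anaphase-promoting complex in check until every chromosome is attached. The complex then triggers the release of sister chromatids, and kinesins and the passenger complex organise the midzone where the cell divides. Most of these genes are transcribed in G2 and M phase, and many of them, such as MKI67, TOP2A and AURKA, are used as markers of proliferating tumor cells.

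Library totals lay between 25291505 and 27391538 counts, so that 3 counts corresponded to 0.110 to 0.119 CPM (counts scaled to the library total), and the member genes had between 409 and 20397 counts in every library. PTGS1 had 713, 658 and 641 counts in OV3/SCR and 456, 486 and 501 in OV3/COX1KD. Its log2 fold change was -0.45 (SE 0.057, FDR = 1.34e-06), and its level was 73.3% of that in OV3/SCR. All 10 listed markers of ovarian carcinoma epithelium were detected. Their summed level was 4950 to 5040 CPM in OV3/SCR and 6170 to 6320 CPM in OV3/COX1KD. KRT8 made up much of that sum, at 1520 to 2320 CPM across the 6 libraries. Single markers were not tested between conditions, and the sum does not show that each of them rose. PAX8 had its highest level, 794 CPM, in an OV3/SCR library and its lowest, 411 CPM, in an OV3/COX1KD library. Of 8 measured markers of other cell types only COL1A1 was above 3 CPM, and LUM and ALB were at or near 0. Libraries of 1 condition differed from each other by a chi-square per degree of freedom of 1.74 to 5.74, and the largest values, 4.44 and 5.74, both involved OV3/COX1KD replicate 2. Libraries of different conditions differed by 40.3 to 53.3.

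As a group the mitotic genes changed little in OV3/COX1KD cells. In edgeR's quasi-likelihood test, with the false discovery rate (FDR) taken over all 17309 genes tested, 29 of the 58 genes (50%) passed an FDR of 0.01, against 47.9% of all genes tested and 63.7% of the 8151 genes within the members' range of abundance. Of those 29 genes, 23 were higher in OV3/COX1KD and 6 were lower. Across all genes tested 25.8% were called higher and 22.1% lower. Of the 8151 genes within the members' range of abundance, 3030 were called higher and 2163 lower. None of the 58 passed that FDR with a log2 fold change beyond 0.5, in either direction, compared with 19.9% of all genes tested and 14.2% of those in the same abundance range, and DESeq2 gave the same count of 0 members. No member reached 0.5 at any p-value in the reported fit. The log2 fold changes ran from -0.47 for KIF18B to 0.40 for KIF15, with a median of 0.0698. The median size of change was 0.131 among the mitotic genes, 0.203 among genes of like abundance and 0.277 among all genes.

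The precision was high enough to bound the changes. For 57 of the 58 genes the 95% interval of the log2 fold change lay within 0.5 of 0, and the exception was KIF18B, at -0.56 to -0.38. Such intervals were found for 49.5% of all genes tested and for 78.5% of those in the same abundance range. The normalised levels of the 3 OV3/COX1KD libraries did not overlap those of OV3/SCR for 40 of 58 genes, against 63.2% of all genes tested. Leaving out OV3/COX1KD replicate 2 gave 24 higher and 6 lower calls, and KIF18B then exceeded 0.5 with a log2 fold change of -0.53.

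**Figure D1:**
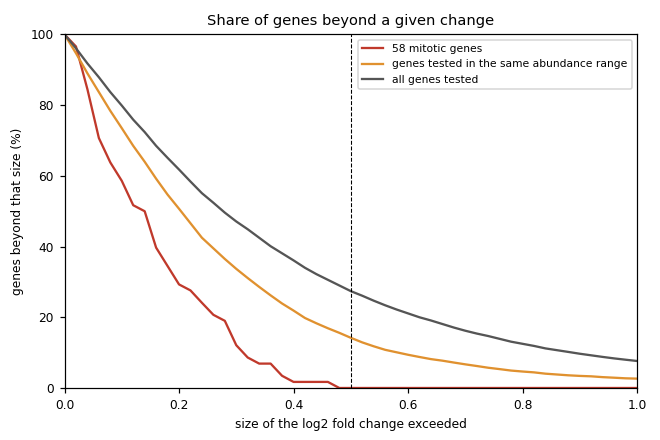
Share of genes (y axis, %) whose log2 fold change exceeded the size on the x axis, for the 58 mitotic genes, the 8151 genes tested in the same abundance range and all 17309 genes tested. The dashed line marks 0.5, which none of the mitotic genes exceeded; beyond 0.2 lay 29.3% of the mitotic genes, 50.7% of genes of like abundance and 61.8% of all genes tested.

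The split of the calls depended on how libraries were scaled. Scaling by total counts in place of TMM (trimmed mean of M-values) moved the log2 fold change of the median gene by -0.0779 and gave 14 higher and 16 lower calls, so that 46.7% of the called genes were higher rather than 79.3%. Offsets for GC content and gene length gave 16 higher and 10 lower, or 61.5% higher. Summed over the 58 genes, the TMM-normalised level was 7133, 7184 and 7219 CPM in OV3/SCR and 7749, 7498 and 7813 CPM in OV3/COX1KD, with no overlap. The means were 7179 ± 43.2 and 7687 ± 167 CPM (SD, n = 3), so that the sum in OV3/COX1KD was 107% of that in OV3/SCR. As a plain share of the library, which uses no TMM factor, the sum was 0.736% ± 0.00213 in OV3/SCR and 0.747% ± 0.0146 in OV3/COX1KD, and OV3/COX1KD replicate 2, at 0.7314%, lay below all 3 OV3/SCR libraries.

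**Figure D2:**
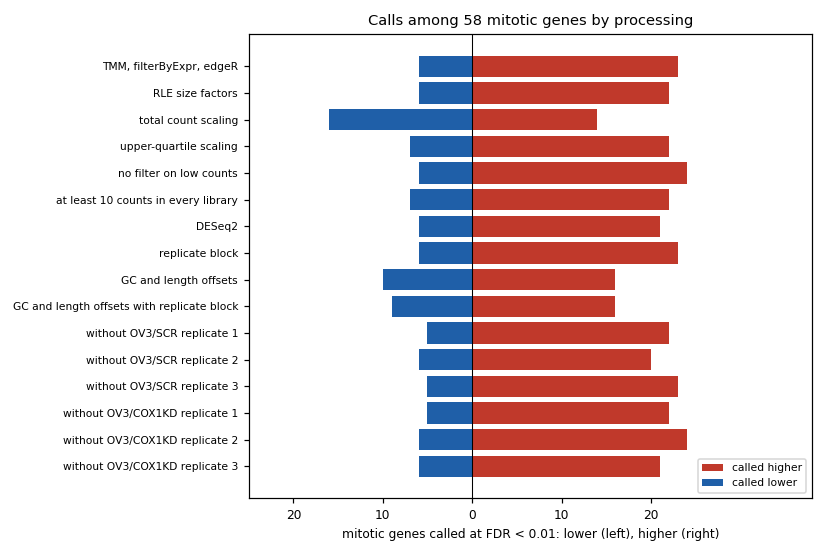
Number of the 58 mitotic genes called lower (left) and higher (right) at an FDR under 0.01 with the reported fit (top bar) and with each of 15 other ways of processing or leaving out a library. Calls numbered 25 to 30 throughout, and total count scaling, with 14 higher and 16 lower, departed most from the reported 23 and 6.

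Base composition ran with direction among the members. The 23 higher genes had a median GC content, taken over the longest transcript of each gene, of 41.1%. It was 52.3% for the 6 lower genes and 46.1% for the 29 genes not called. Across the 58 genes the correlation of log2 fold change with GC content was -0.369, compared with -0.0374 across 12790 genes of mean log2 CPM 1 or more. These are correlations across genes of the same 6 libraries and genes are not independent replicates, so no p-value is given. The part of base composition in the direction of the calls was not tested. The correlation with log2 gene length was 0.0569. Expressed neighbours within 2 Mb of each member had median log2 fold changes of -0.15 to 0.47, and their correlation with the member's own value was -0.0227. The neighbour median was beyond 0.2 for 5 members, SMC2, SGOL1, HMMR, KIF23 and SMC4.

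A shared feature of the mitotic genes that played no part in choosing them lies in their promoters. Cell cycle promoters active in G2 and M phase are known for the cell cycle genes homology region (CHR) bound by the MuvB core, usually near a CCAAT box bound by NF-Y. Promoter windows came from RefSeq on GRCh38.p14 and ran from 250 bases before to 50 after the gene start. They were matched by Ensembl identifier, or else by symbol, for 50 of the 58 genes. Windows of the genes tested were matched by symbol alone. BIRC5, UBE2C, RACGAP1, AURKA, TTK, BUB3, TPX2 and FOXM1 were not matched. Letters of the CHR (TTTGAA or TTCGAA, on either strand) were in 40 of the 50 windows (80%), compared with 11.2% of 11758 windows of genes tested and 16.6% of 27305 windows of all genes. CCAAT, on either strand, was in 37 windows (74%), compared with 36.3% and 35.7%. Both were present in 30 windows (60%), compared with 4.75% and 6.58%. E2F-type letters (TTTGGCG or TTTCGCG, on either strand) were in 4 windows (8%), compared with 4.94% and 3.22%. None of these letter strings contains another, and a match describes the window and not a bound site.

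CHR letters were found in windows of genes called in either direction and of genes not called. They stood in 15 of 20 windows of genes called higher, in 5 of 6 of those called lower and in 20 of 24 of those not called. CCAAT stood in 13 of 20, 4 of 6 and 20 of 24 windows in the same order. E2F-type letters stood in 4 of 20, 0 of 6 and 0 of 24 windows in the same order, that of KIF15 among them. These 4 windows are too few to link the letters to direction. Windows are printed for the most raised kinesin and the most raised gene outside that family, for the genes with the largest falls, and for PLK1, which was not called, with GRCh38.p14 positions, all motif letters in capitals and the gene strand read 5′ to 3′.
KIF15 (chr3:44761544-44761843, plus strand): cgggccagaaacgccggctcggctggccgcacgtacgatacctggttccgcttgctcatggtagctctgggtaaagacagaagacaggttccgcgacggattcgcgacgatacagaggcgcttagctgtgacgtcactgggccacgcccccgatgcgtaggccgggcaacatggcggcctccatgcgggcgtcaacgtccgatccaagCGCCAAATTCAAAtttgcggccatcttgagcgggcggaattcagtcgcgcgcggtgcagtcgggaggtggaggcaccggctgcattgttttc
TOP2A (chr17:40417847-40418146, minus strand): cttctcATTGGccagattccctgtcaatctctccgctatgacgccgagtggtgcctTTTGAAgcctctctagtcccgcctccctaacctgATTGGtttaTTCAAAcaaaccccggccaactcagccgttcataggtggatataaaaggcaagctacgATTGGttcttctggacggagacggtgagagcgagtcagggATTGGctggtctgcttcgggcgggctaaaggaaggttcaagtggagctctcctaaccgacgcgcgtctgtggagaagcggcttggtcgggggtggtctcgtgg
KIF18B (chr17:44947724-44948023, minus strand): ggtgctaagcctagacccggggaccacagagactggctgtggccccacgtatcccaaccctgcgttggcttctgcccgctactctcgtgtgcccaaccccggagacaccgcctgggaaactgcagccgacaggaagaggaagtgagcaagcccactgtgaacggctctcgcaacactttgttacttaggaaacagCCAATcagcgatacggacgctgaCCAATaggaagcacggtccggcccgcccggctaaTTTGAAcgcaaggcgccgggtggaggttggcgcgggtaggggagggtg
CDCA3 (chr12:6851237-6851536, minus strand): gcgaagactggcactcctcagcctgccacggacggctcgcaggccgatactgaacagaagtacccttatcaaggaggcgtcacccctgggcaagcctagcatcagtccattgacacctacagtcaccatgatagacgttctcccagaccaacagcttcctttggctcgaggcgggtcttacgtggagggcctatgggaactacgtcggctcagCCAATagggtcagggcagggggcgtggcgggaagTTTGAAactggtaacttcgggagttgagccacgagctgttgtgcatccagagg
PLK1 (chr16:23678639-23678938, plus strand): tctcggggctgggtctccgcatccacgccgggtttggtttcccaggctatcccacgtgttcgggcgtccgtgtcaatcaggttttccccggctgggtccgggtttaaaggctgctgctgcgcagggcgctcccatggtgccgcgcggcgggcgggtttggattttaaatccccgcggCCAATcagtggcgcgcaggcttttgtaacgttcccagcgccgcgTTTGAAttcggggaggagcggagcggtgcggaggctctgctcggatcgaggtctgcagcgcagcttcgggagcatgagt
KIF15 and TOP2A rose whereas KIF18B and CDCA3 fell, and CHR letters were present in the windows of all 4 as well as of PLK1. TOP2A had 2 CHR and 4 CCAAT matches, KIF18B 1 and 2, CDCA3 and PLK1 1 of each, and KIF15 1 CHR match, 1 E2F-type match and no CCAAT match.

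**Figure D3:**
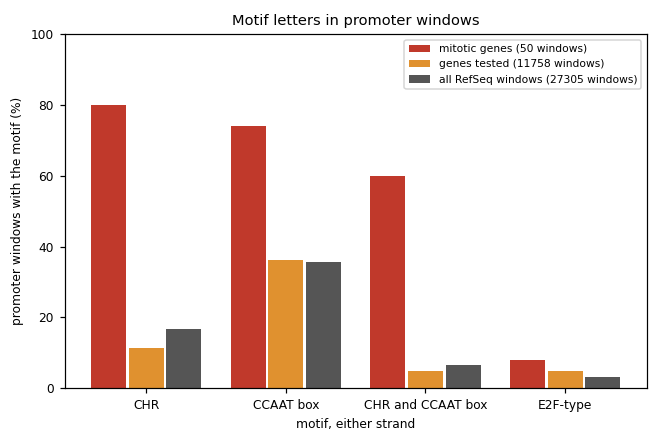
Share of promoter windows (y axis, %) holding the letters of each motif (x axis) among 50 mitotic genes, 11758 genes tested and 27305 RefSeq windows. CHR letters stood in 80% of the windows of mitotic genes, compared with 11.2% and 16.6% in the other sets.

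Among the mitotic kinases, NEK2 rose, PLK4 fell, and neither AURKA nor PLK1 was called. AURKA, the centrosomal Aurora kinase that TPX2 activates, had 2294, 2462 and 2335 counts in OV3/SCR and 2219, 2208 and 2324 in OV3/COX1KD, a log2 fold change of -0.04 (SE 0.038, FDR = 0.383). PLK1, the Polo-like kinase that acts from mitotic entry to cytokinesis, had 3162, 3349 and 3097 counts in OV3/SCR and 2949, 2985 and 3111 in OV3/COX1KD, a log2 fold change of -0.06 (SE 0.036, FDR = 0.189). Levels overlapped between conditions for both genes, and their 95% intervals were -0.12 to 0.04 and -0.13 to 0.02. NEK2, a kinase that loosens the link between centrosomes, had 909, 826 and 769 counts in OV3/SCR and 972, 938 and 1025 in OV3/COX1KD. All 3 OV3/COX1KD libraries were above all OV3/SCR libraries, with a log2 fold change of 0.26 (SE 0.052, FDR = 0.000242). PLK4, the kinase that starts centriole duplication, had 1847, 1602 and 1650 counts in OV3/SCR and 1330, 1394 and 1366 in OV3/COX1KD. It was lower in all 3 OV3/COX1KD libraries, with a log2 fold change of -0.29 (SE 0.047, FDR = 3.07e-05), or 82.0% of the OV3/SCR level. With total count scaling AURKA and PLK1 were called lower, at -0.12 and -0.13, and AURKA was also lower with GC and length offsets, at -0.13.

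In the chromosomal passenger complex, which corrects faulty attachments and later moves to the midzone, the subunits went different ways. AURKB, its kinase, had 1380, 1380 and 1294 counts in OV3/SCR and 1212, 1297 and 1295 in OV3/COX1KD, and its levels overlapped between conditions, with a log2 fold change of -0.06 (SE 0.043, FDR = 0.244). BIRC5, the survivin subunit that targets the complex to centromeres, had 831, 876 and 837 counts in OV3/SCR and 971, 939 and 1003 in OV3/COX1KD. It rose by a log2 fold change of 0.23 (SE 0.047, FDR = 0.000372), a call that was lost with total count scaling, at 0.15. INCENP, the scaffold that binds and activates AURKB, had 3189, 3166 and 3026 counts in OV3/SCR and 2719, 2637 and 2875 in OV3/COX1KD. Its level fell to 89.7% of that in OV3/SCR, a log2 fold change of -0.16 (SE 0.033, FDR = 0.000374). CDCA8, the borealin subunit, had a log2 fold change of 0.08 (SE 0.045, FDR = 0.136) and was not called. The intervals of BIRC5, 0.13 to 0.33, and INCENP, -0.23 to -0.09, did not overlap, and the difference between subunits was not itself tested.

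Of the 5 spindle assembly checkpoint genes, BUB1 and BUB1B rose and none fell with TMM scaling, where 25.8% of all genes tested were called higher. BUB1, a checkpoint kinase at the kinetochore, had 2733, 2575 and 2494 counts in OV3/SCR and 3045, 2936 and 3310 in OV3/COX1KD. It was higher in every OV3/COX1KD library, at 122% of the OV3/SCR level, with a log2 fold change of 0.28 (SE 0.036, FDR = 1.11e-06). BUB1B encodes BUBR1, which as part of the mitotic checkpoint complex restrains CDC20. It had 3221, 3304 and 3183 counts in OV3/SCR and 3425, 3459 and 3716 in OV3/COX1KD, a log2 fold change of 0.16 (SE 0.032, FDR = 0.000315), and this call was lost with total count scaling, at 0.08, and with GC and length offsets, at 0.09. MAD2L1, the MAD2 protein that captures CDC20, had 2410, 2270 and 2266 counts in OV3/SCR and 2254, 2325 and 2566 in OV3/COX1KD, a log2 fold change of 0.07 (SE 0.037, FDR = 0.1). TTK, the MPS1 kinase at the head of the checkpoint, had 2418, 2278 and 2368 counts in OV3/SCR and 2415, 2226 and 2490 in OV3/COX1KD, a log2 fold change of 0.04 (SE 0.037, FDR = 0.314). Levels of MAD2L1, TTK and BUB3, the partner of BUB1 and BUBR1, overlapped between conditions. BUB3 had a log2 fold change of -0.03 (SE 0.031, FDR = 0.395), and was called lower with total count scaling, at -0.11.

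Among genes of the anaphase-promoting complex and of sister separation, UBE2C and PTTG1 rose, CDCA3 fell and 5 were not called. CDC20, the activator that the checkpoint holds back, had 3212, 3336 and 3193 counts in OV3/SCR and 3347, 3261 and 3436 in OV3/COX1KD. Its normalised levels did not overlap, but the log2 fold change of 0.08 (SE 0.033, FDR = 0.0586) did not pass the threshold. UBE2C, the ubiquitin-conjugating enzyme of the complex, had 4811, 4594 and 4671 counts in OV3/SCR and 5065, 5094 and 5538 in OV3/COX1KD. It rose to 114% of the OV3/SCR level, a log2 fold change of 0.19 (SE 0.03, FDR = 2.14e-05). PTTG1 encodes securin, the inhibitor of separase, and its log2 fold change was 0.17 (SE 0.035, FDR = 0.000297). That call was lost with total count scaling and with GC and length offsets, at 0.09 and 0.08. CDCA3 (chr12:6953957-6960456 on GRCh37), a substrate of the complex that is linked to the turnover of WEE1, had 2007, 1958 and 1908 counts in OV3/SCR and 1328, 1580 and 1518 in OV3/COX1KD. It was lower in all 3 OV3/COX1KD libraries, least so in replicate 2, with a log2 fold change of -0.38 (SE 0.049, FDR = 1.82e-06). ESPL1, which is separase, FZR1, the late activator CDH1, and SGOL1 and SGOL2, the shugoshins that protect centromeric cohesion, had log2 fold changes of -0.01, -0.12, -0.11 and 0.14 and were not called. SGOL2 passed the threshold without OV3/COX1KD replicate 2 and with no filter, at 0.17 each, FZR1 was called lower with total count scaling, at -0.20, and SGOL1 with GC and length offsets, at -0.19. Transcribed copies that could take reads from these genes had few, with at most 2 counts for PTTG2, 1 for PTTG3P and 7 for CDC20P1 in any library.

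The 12 kinesins held both extremes. KIF15 (chr3:44803213-44914868 on GRCh37), a plus-end-directed motor that can take over spindle bipolarity from KIF11, had 858, 818 and 876 counts in OV3/SCR and 1073, 1034 and 1181 in OV3/COX1KD. It was 132% of the OV3/SCR level, with a log2 fold change of 0.40 (SE 0.048, FDR = 6.9e-07). KIF18B (chr17:43002077-43025141 on GRCh37), a plus-end kinesin that shortens astral microtubules, had 3014, 2913 and 2916 counts in OV3/SCR and 1985, 2212 and 2046 in OV3/COX1KD. All 3 OV3/COX1KD libraries were below every OV3/SCR library, at 72.2% of the OV3/SCR level, with a log2 fold change of -0.47 (SE 0.043, FDR = 1.35e-08). With total count scaling it was -0.55. KIF18A, a motor of the same kinesin-8 family that damps chromosome movements, had a log2 fold change of 0.07 (SE 0.043, FDR = 0.18), and its levels overlapped.

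KIF11, the bipolar motor also called Eg5, had 3138, 3222 and 3264 counts in OV3/SCR and 3558, 3489 and 3765 in OV3/COX1KD. Its levels did not overlap, with a log2 fold change of 0.20 (SE 0.034, FDR = 4.21e-05). KIF20A, the motor that brings the passenger complex to the midzone, had 3340, 3411 and 3237 counts in OV3/SCR and 3609, 3508 and 3815 in OV3/COX1KD, a log2 fold change of 0.16 (SE 0.032, FDR = 0.000255). KIF2C, the centromeric microtubule depolymerase MCAK, also rose, with a log2 fold change of 0.23 (SE 0.042, FDR = 0.000115). The call for KIF20A was lost with total count scaling and with GC and length offsets. The other 7 were not called, namely KIF4A, KIF14, KIF20B, KIF22, KIF23, KIFC1 and KIF18A, with log2 fold changes between -0.07 and 0.10. KIF22 and KIF23 were called lower with total count scaling, at -0.15 and -0.11. KIF4B, a near-identical copy of KIF4A, had 4 to 10 counts.

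**Figure D4:**
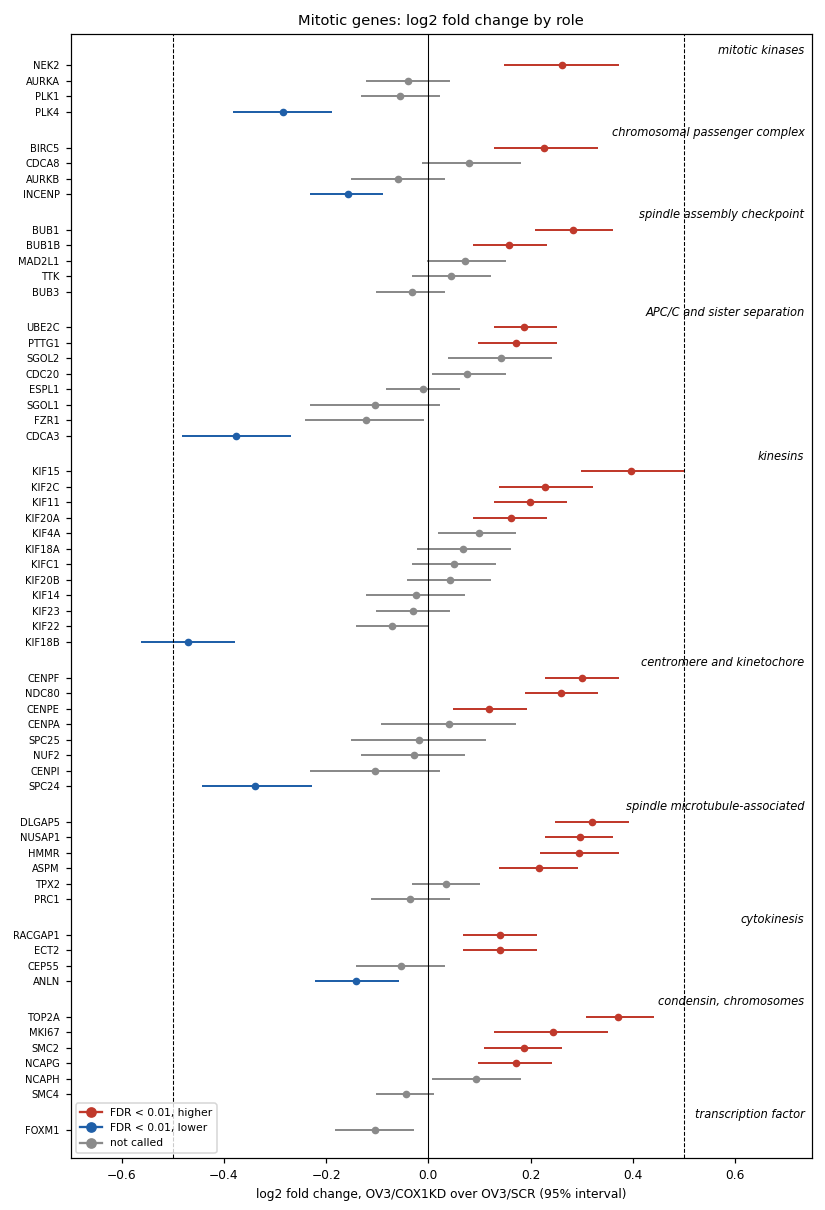
Log2 fold change of OV3/COX1KD over OV3/SCR (x axis) with its 95% interval for each of the 58 genes, grouped by role, with 3 libraries per condition. Red genes were higher and blue genes lower at an FDR under 0.01, grey genes were not called, and dashed lines mark 0.5 in each direction, which only the interval of KIF18B crossed on the left.

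At the kinetochore, CENPF, NDC80 and CENPE rose and SPC24 fell. CENPF, a large protein of the outer kinetochore, had 7827, 7827 and 7940 counts in OV3/SCR and 9690, 8744 and 10031 in OV3/COX1KD. It rose to 123% of the OV3/SCR level, with a log2 fold change of 0.30 (SE 0.035, FDR = 3.63e-07). CENPE, the kinesin that carries chromosomes to the spindle equator, had 2770, 2854 and 2868 counts in OV3/SCR and 2999, 2883 and 3142 in OV3/COX1KD, a log2 fold change of 0.12 (SE 0.035, FDR = 0.00649). The call for CENPE was lost with RLE, total count and upper-quartile scaling, with at least 10 counts per library, with DESeq2 and with GC and length offsets, at log2 fold changes of 0.04 (total count) to 0.11. It was also lost without OV3/SCR replicate 1, OV3/SCR replicate 2, OV3/COX1KD replicate 1 or OV3/COX1KD replicate 3, with FDRs of 0.0523, 0.0151, 0.0325 and 0.0197. CENPA, the centromeric histone H3 variant, and CENPI, of the inner kinetochore, had log2 fold changes of 0.04 and -0.11 and were not called.

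The 4 subunits of the NDC80 complex, the main coupler of kinetochores to microtubules, did not move together. NDC80 had 2058, 2038 and 2103 counts in OV3/SCR and 2330, 2400 and 2532 in OV3/COX1KD, all OV3/COX1KD libraries being higher, with a log2 fold change of 0.26 (SE 0.036, FDR = 3.45e-06). SPC24 (chr19:11242196-11266483 on GRCh37), from the end of the complex that faces the centromere, had 1289, 1267 and 1142 counts in OV3/SCR and 976, 945 and 938 in OV3/COX1KD. Here all OV3/COX1KD libraries were lower, with a log2 fold change of -0.34 (SE 0.05, FDR = 9.2e-06). NUF2 and SPC25 overlapped between conditions and had log2 fold changes of -0.03 and -0.02. The intervals of NDC80, 0.19 to 0.33, and SPC24, -0.44 to -0.23, did not overlap. The difference between subunits was not tested.

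Of the 6 spindle-binding genes, 4 rose and none fell with TMM scaling. For comparison, 25.8% of all genes tested were called higher, as were 3030 of the 8151 genes of like abundance. DLGAP5 (chr14:55614830-55658326 on GRCh37), also called HURP, which stabilises microtubules near the chromosomes, had 4434, 4363 and 4534 counts in OV3/SCR and 5283, 5197 and 5810 in OV3/COX1KD. It was 125% of the OV3/SCR level in OV3/COX1KD, with a log2 fold change of 0.32 (SE 0.033, FDR = 6.24e-08). NUSAP1, a microtubule-bundling protein, HMMR, a spindle pole and hyaluronan-binding protein, and ASPM, which works at spindle poles, rose by log2 fold changes of 0.30, 0.29 and 0.22. The 3 expressed neighbours of HMMR within 2 Mb had a median of 0.34, and their part in its rise was not tested. TPX2, the activator of AURKA and nucleator of spindle microtubules, had 6839, 7095 and 7050 counts in OV3/SCR and 7034, 6733 and 7271 in OV3/COX1KD. Its levels overlapped, with a log2 fold change of 0.03 (SE 0.032, FDR = 0.359). PRC1, which crosslinks midzone microtubules, had a log2 fold change of -0.04 (SE 0.035, FDR = 0.4) and was called lower with total count scaling, at -0.11. For PRC1, 34.3% of its exonic bases are shared with AC068831.8 on either strand. Reads there could have been counted for either gene or for neither, and which of these happened is not known.

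In cytokinesis, RACGAP1 and ECT2 rose and ANLN fell, each by less than 0.15 on the log2 scale. RACGAP1, which with KIF23 forms centralspindlin, had 4418, 4162 and 4316 counts in OV3/SCR and 4479, 4410 and 5031 in OV3/COX1KD, a log2 fold change of 0.14 (SE 0.034, FDR = 0.00144). It activates ECT2 at the midzone, the exchange factor for RhoA, which had a log2 fold change of 0.14 (SE 0.033, FDR = 0.00114). ANLN, the actin-binding protein anillin of the contractile ring, had 6887, 6581 and 6911 counts in OV3/SCR and 5975, 5495 and 6623 in OV3/COX1KD. Its level was 90.6% of that in OV3/SCR, with a log2 fold change of -0.14 (SE 0.038, FDR = 0.00373). CEP55, which recruits the abscission machinery, had a log2 fold change of -0.05 (SE 0.04, FDR = 0.269) and was not called. With total count scaling RACGAP1 and ECT2 were no longer called, at 0.06 each, nor were they with GC and length offsets, at 0.07 each, and CEP55 was called lower under both, at -0.13 and -0.14. The calls also changed when single libraries were left out. RACGAP1 was lost without OV3/SCR replicate 2 or OV3/COX1KD replicate 3, with FDRs of 0.0154 and 0.0139, and ECT2 without OV3/SCR replicate 2, with an FDR of 0.0129. ANLN was lost without OV3/SCR replicate 1, OV3/SCR replicate 3 or OV3/COX1KD replicate 1, with FDRs of 0.0162, 0.0443 and 0.0104.

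TOP2A led the genes of chromosome structure, of which 4 of 6 rose and none fell with TMM scaling. Among all genes tested 25.8% were called higher and 22.1% lower. Among the 8151 genes of like abundance 3030 were called higher and 2163 lower. TOP2A (chr17:38544777-38574148 on GRCh37), the topoisomerase that untangles chromosomes and the target of etoposide and doxorubicin, had 10749, 10375 and 10557 counts in OV3/SCR and 13255, 12514 and 14343 in OV3/COX1KD. All OV3/COX1KD libraries were above all OV3/SCR libraries, with a log2 fold change of 0.37 (SE 0.031, FDR = 3.8e-09), or 129% of the OV3/SCR level. MKI67, the Ki-67 antigen that coats mitotic chromosomes, had 12924, 13751 and 13528 counts in OV3/SCR and 16514, 13329 and 16760 in OV3/COX1KD. Its OV3/COX1KD libraries were uneven, replicate 2 being close to OV3/SCR, and its log2 fold change was 0.24 (SE 0.053, FDR = 0.000595). Without that library it was 0.34. SMC2 and NCAPG, condensin subunits, rose by 0.19 and 0.17 on the log2 scale, whereas SMC4 and NCAPH, of the same complex, had log2 fold changes of -0.04 and 0.09 and were not called. With total count scaling SMC2 and NCAPG were no longer called, at 0.11 and 0.09, and SMC4 was called lower, at -0.12. GC and length offsets likewise ended the call for NCAPG, at 0.09, and gave a lower call for SMC4, at -0.09. Neighbours of SMC2 and SMC4 within 2 Mb had median log2 fold changes of 0.47 and 0.23. Exonic bases were shared with neighbouring genes over 33.7% of NCAPG (LCORL) and 22.0% of SMC4 (TRIM59 and IFT80).

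FOXM1, a transcription factor that drives many G2 and M phase genes, had 1888, 1949 and 1930 counts in OV3/SCR and 1730, 1675 and 1842 in OV3/COX1KD. The normalised levels did not overlap, with a log2 fold change of -0.11 (SE 0.038, FDR = 0.0218), so that it was not called. It was called lower with total count scaling, with upper-quartile scaling and with a filter of 10 counts, at -0.18, -0.13 and -0.12.

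**Figure D5:**
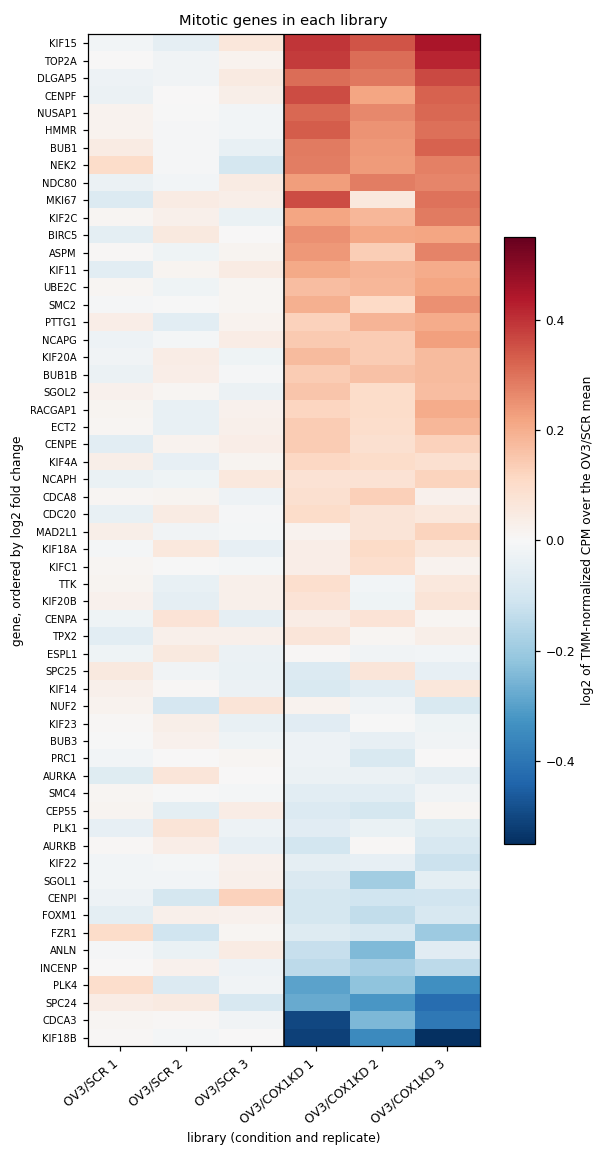
Normalised level of each of the 58 genes (rows, ordered by fold change) in each of the 6 libraries (columns), as the log2 of its TMM-normalised CPM over the OV3/SCR mean. KIF15 and TOP2A at the top were higher and CDCA3 and KIF18B at the bottom lower in all 3 OV3/COX1KD libraries, while MKI67 in OV3/COX1KD replicate 2 was close to OV3/SCR.

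Per kilobase of exon the members spanned a wide range of levels. In OV3/SCR the highest level was that of UBE2C, at 139 ± 1.93 CPM per kilobase (SD, n = 3), followed by SMC4 at 93.0 ± 0.693 and TPX2 at 74.1 ± 2.55. PTTG1, TOP2A and CDC20 followed at 65.9 ± 2.35, 63.3 ± 0.803 and 61.6 ± 1.88, and PTTG1 and TOP2A, like TOP2A and CDC20, were within their spread. In OV3/COX1KD TOP2A was at 81.8 and PTTG1 at 74.3 CPM per kilobase. The lowest levels were those of CENPI at 3.61 ± 0.289, SGOL1 at 4.98 ± 0.0827 and SGOL2 at 5.14 ± 0.0993. KIF15, the gene with the largest rise, was also among the least abundant, at 6.15 ± 0.241 CPM per kilobase.

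A wider list of 122 genes of mitosis outside the 58 was also examined, of which 120 were tested and LIN37 and TEX14 were not. Of these, 58 passed the FDR (48.3%, against 47.9% of all genes tested), 28 higher and 30 lower, with a median log2 fold change of -0.0109. The median size of change was 0.129, close to the 0.131 of the 58 members, so a small typical change was not particular to them. Of the 120 tested, 12 passed with a log2 fold change beyond 0.5, against 19.9% of all genes tested. With total count scaling the split was 14 higher and 49 lower. The mitotic cyclin-dependent kinase CDK1 had 7281, 6511 and 6893 counts in OV3/SCR and 6385, 6495 and 7024 in OV3/COX1KD, a log2 fold change of -0.02 (SE 0.034, FDR = 0.559). Its partner CCNB1, cyclin B1, had 8180, 7609 and 7622 counts in OV3/SCR and 8279, 8116 and 8654 in OV3/COX1KD and rose by a log2 fold change of 0.13 (SE 0.029, FDR = 0.000848).

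The largest rises of that list were in TFDP1, CDC16 and RAD21. TFDP1, the DP1 partner of E2F factors, had 2067, 2050 and 1940 counts in OV3/SCR and 3223, 3188 and 3429 in OV3/COX1KD, a log2 fold change of 0.73 (SE 0.034, FDR = 4.44e-13). CDC16, a subunit of the anaphase-promoting complex, had 794, 838 and 889 counts in OV3/SCR and 1337, 1311 and 1356 in OV3/COX1KD, a log2 fold change of 0.70 (SE 0.05, FDR = 3.92e-10). Both genes lie on chromosome 13, with a median of 0.30 among the 14 expressed neighbours of each. They lie within 2 Mb of each other, so these neighbourhoods largely overlap and each gene counts among the neighbours of the other. RAD21, the cohesin subunit that separase cleaves, had 19782, 18993 and 18998 counts in OV3/SCR and 29081, 28165 and 31255 in OV3/COX1KD, a log2 fold change of 0.65 (SE 0.028, FDR = 1.49e-13). Its 7 expressed neighbours on chromosome 8 had a median of 0.58. The part of these neighbourhoods in the rises was not tested.

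The largest falls were in HAUS7, CENPT and PKMYT1. HAUS7, a subunit of augmin, which branches spindle microtubules, had 132, 127 and 97 counts in OV3/SCR and 59, 63 and 75 in OV3/COX1KD, a log2 fold change of -0.82 (SE 0.15, FDR = 7.38e-05). CENPT, which links the centromere to the NDC80 complex, had 2579, 2506 and 2483 counts in OV3/SCR and 1534, 1686 and 1621 in OV3/COX1KD, a log2 fold change of -0.61 (SE 0.04, FDR = 1.1e-10). PKMYT1, a kinase that inhibits CDK1, had 2535, 2459 and 2264 counts in OV3/SCR and 1477, 1623 and 1571 in OV3/COX1KD, a log2 fold change of -0.60 (SE 0.044, FDR = 5.12e-10). Neighbours of these 3 genes had medians of 0.06, -0.05 and -0.02. For CENPT and PKMYT1, as for TFDP1, CDC16 and RAD21, the 3 libraries of each condition were well apart, while HAUS7 rested on 59 to 132 counts.

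By role, the wider list moved in both directions. Of 15 augmin and gamma-tubulin genes, 6 were lower and 1 higher, where 22.1% of all genes tested were lower and 25.8% higher. The 8 augmin genes among them, singled out after their values were seen, ran from -0.82 for HAUS7 to 0.18 for HAUS4, with HAUS3, HAUS5, HAUS6, HAUS7 and HAUS8 called lower and HAUS1, HAUS2 and HAUS4 not called. Neighbours of HAUS3 had a median of -0.33. Of the 16 genes of the spindle pole, centriole and microtubule dynamics, 3 were higher and 5 lower. The anaphase-promoting complex group had 7 of 16 higher and 4 lower, and the 31 other kinetochore and checkpoint genes 5 higher and 6 lower.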

How the data were processed

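RNA-seq was performed on 3 OV3/SCR and 3 OV3/COX1KD libraries. The authors aligned reads to hg19 (GRCh37) with TopHat2 and deposited raw read counts per gene from HTSeq. The gene annotation and strand setting of the counting are not given in the sources used here. Conditions and replicate numbers came from the labels. The test was that of edgeR 4.0.16 under R 4.3.3 (TMM, filterByExpr, glmQLFit, glmQLFTest, Benjamini-Hochberg FDR under 0.01, condition as the only factor). Fold changes are OV3/COX1KD over OV3/SCR, and SE is the log2 fold change divided by the square root of F. The common dispersion gave a biological coefficient of variation of 3.21%.

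The members, the wider list and the marker list were chosen with earlier results of these data known. Full values are given for 18 anchor genes, the largest called rise and fall of each role and the 3 largest of each direction, for the targeted gene, and in the wider list for CDK1, CCNB1 and the 3 largest of each direction. Other members are given by fold change, and those of the wider list read singly are marked. Gene lengths (all exons joined), GC content (longest transcript) and exon overlaps (either strand) came from GENCODE lifted to GRCh37. On simulated counts with known changes, among genes with a log2 CPM of at least 4, the test recovered 37 of 45 genes changed by a log2 fold of 0.3 and 51 of 51 changed by 1, with 1 false call among 17014 genes. Only a small share of genes was changed there, evenly up and down, and the fitted TMM factors were used. The simulation therefore could not test the choice of scaling. Intervals from counts cover no spread between clones. The alternatives were RLE, total count and upper-quartile scaling, DESeq2 1.42.0, no filter, a minimum of 10 counts per library, the replicate number as a block, and each library left out. GC and length offsets, alone and with the block, were added after seeing the data.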

Additional observations from a re-analysis of the deposited data

How the results depend on the processing

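Across 15 alternatives, 25 to 30 of the 58 mitotic genes were called (29 as reported), none of the called genes reversed, and 18 of the 29 calls (13 higher, 5 lower) held in every one. Total count scaling gave 14 higher and 16 lower, a median log2 fold change of -0.00814 in place of 0.0698, and 8 uncalled genes of opposite sign (CDC20, CENPA, KIF18A, KIFC1, KIF20B, MAD2L1, TTK and TPX2). It took the wider list from 28 higher and 30 lower to 14 and 49. GC and length offsets gave 10 lower calls and a median of 0.0184, or 0.0186 with the replicate block. The median was 0.0495 with upper-quartile scaling, 0.0922 with no filter and 0.0526 with at least 10 counts in every library. Leaving out each library in turn gave medians of 0.0605 to 0.0796. KIF18B passed 0.5 only with total count scaling and without OV3/COX1KD replicate 2. DESeq2 lost CENPE and MKI67. The growth protocol speaks of replicate pairs without saying which numbers pair. Deviations of same-numbered libraries correlated at 0.00447, 0.0424 and 0.00896. Libraries of different number gave -0.0266 to 0.0181, a range that only replicate 2 exceeded. All these values were near 0, so the numbers were not taken to pair the conditions. The replicate block gave 23 higher and 6 lower calls with no member call changed, and 56 calls in the wider list in place of 58. SEs reached 0.063 on the log2 scale among the least abundant members (SPC25), so smaller differences were least detectable there, and 1 clone stood for each condition. The causes of these shifts were not tested.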
